A study of Homo sapiens with 3 samples.

Results

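The 10 genes described here, DUSP4, DUSP5, DUSP6, SPRY1, SPRY2, SPRY4, SPRED1, SPRED2, ETV4 and ETV5, are transcribed downstream of the MAP kinase ERK, and most of them encode inhibitors that act back on the pathway. They were taken by symbol from the annotation carried in the scanner files, which gave 14 probes of the 41000 on the array and 10 genes of the 17084 with a curated transcript. The rule reads symbols and no signals, but the genes were listed with earlier results of these data known. Total RNA came from the established human melanoma line 1205Lu, which was derived from the line WM793 through a lung metastasis of a xenograft in mouse. The original monolayer (OM) was kept for 14 days in RPMI-1640 with 10% FCS. Melanoma bodies (MB) were spheroids that stayed attached to the dish, collected after 14 days in human embryonic stem cell (hESC) medium. That medium was a DMEM/F-12 base that held 20% KnockOut serum replacement. The new monolayer (NM) grew out of such bodies, after 14 days in hESC medium, during 10 days back in standard medium, and the remaining bodies were removed before collection. Each population was hybridised to 1 one-colour Agilent 4 × 44K array, all on 1 slide. Medium and growth form changed together and cannot be told apart, and with 1 array a population no difference between populations could be tested.

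ERK is the last kinase of the cascade that runs from growth factor receptors through RAS, RAF and MEK, and in melanoma the cascade is commonly driven by mutant BRAF or NRAS. Active ERK switches on a set of genes within which the dual-specificity phosphatases (DUSP) remove the activating phosphates from MAP kinases, while the Sprouty (SPRY) and Sprouty-related (SPRED) proteins act further up, on the signal from receptors to RAS and RAF. ETV4 and ETV5 are transcription factors of the PEA3 group of the ETS family. The messenger RNA of these genes is widely read as a measure of the output of the pathway. ERK phosphorylation itself was not among the values analysed here.

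The probes of SPRED2 gave opposite directions, and a probe annotated near SPRY4 differed from the SPRY4 probe, so the sequences of these 4 probes are shown first. Each is the first 30 of the 60 bases of the probe, in the sense of the messenger RNA, with positions in build hg17 as the scanner files give them. The SPRY4 probe lay on the minus strand at chr5:141670755-141670814. The nearby probe, annotated to a sprouty-4C cDNA, lay at chr5:141667612-141667671, 3083 bases away. The brighter SPRED2 probe was on the minus strand at chr2:65450502-65450561 and the dimmer one at chr2:65473447-65473506, with 22885 bases between them.
SPRY4: tcgccatcatacctcgagtgaggcccagct
sprouty-4C cDNA: tataatttgaccctagttagaatggttatc
SPRED2, brighter probe: accggtgtaaatacccagtgtgcttatgag
SPRED2, dimmer probe: caacgtttcatcactggaaggtcgataata

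All 10 genes read higher on the MB array than on either other array, by amounts that ran from 1.08-fold to 5.36-fold, although ETV4 and ETV5 changed sign against OM with spike-in scaling, ETV5 also against NM, and SPRED2 at its dimmer probe. By any amount, 47.7% of the genes measured in both comparisons were higher on MB than on both other arrays. The differences past 2-fold were those of SPRY4 and DUSP4 against both populations and that of SPRY1 against OM. Of all genes measured, 6.62% were 2-fold or more higher on MB than on OM and 11.1% than on NM. At the brightest probes, NM lay within the technical spread of OM, defined below, for 5 members. SPRY1 and SPRY2 were higher on NM past that spread, where 46.2% of all genes were, and SPRY4, SPRED1 and ETV4 lower, where 28% were. The dimmer SPRED2 probe had NM 2.20-fold above OM. Signals are given below in arbitrary units (a.u.) as deposited, and each fold change is from signals divided by the mean of the housekeeping genes GAPDH, ACTB and HSP90AA1 on the same array. Each of the 14 probes was well above background on all 3 arrays, was read in 1 spot, and had no outlier or saturated spot. The spread of a log2 ratio of a single spot was estimated from 201 probes present in 10 spots each and had an SD of 0.07 in MB over OM. Double that SD, 0.15 on the log2 scale and 0.14 in MB over NM, is used below as the technical spread, which leaves out the variation between cultures. A gene with several probes is represented by its brightest probe, and the others are given with it. Levels are compared between arrays for the same probe, never between genes. In such bulk RNA, fewer cells with a transcript and less of it in each cell cannot be told apart.

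**Figure D1:**
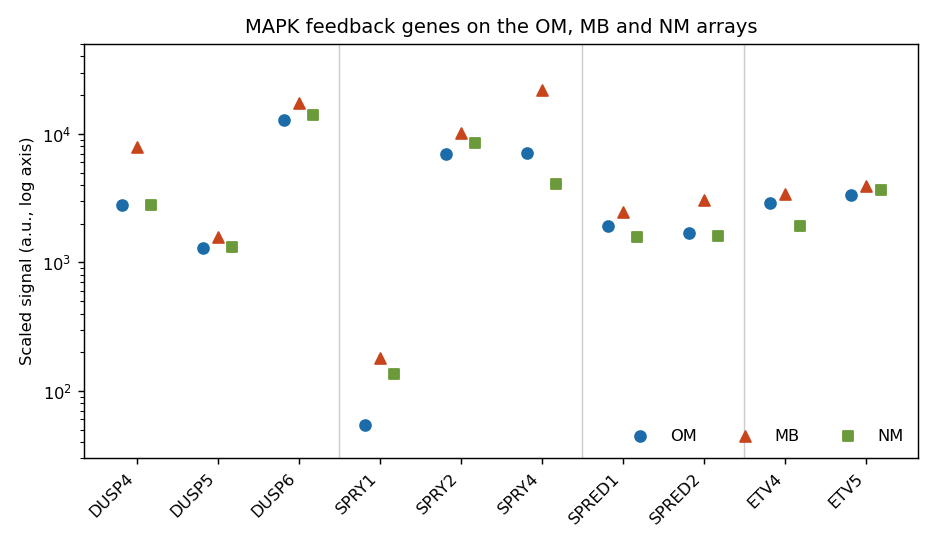
Housekeeping-scaled signal (a.u., log axis) of each of the 10 genes on the OM, MB and NM arrays, 1 point an array and therefore no error bar. The MB point is the highest for every gene, with the widest gaps for DUSP4, SPRY1 and SPRY4, and heights are not comparable between genes.

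DUSP4, a nuclear phosphatase that acts on ERK and other MAP kinases, read 2794 a.u. on OM, 7689.7 a.u. on MB and 2433 a.u. on NM. It was 2.82-fold higher on MB than on OM and 2.84-fold higher than on NM. MB alone was high, and OM and NM differed by less than the technical spread (log2 ratio -0.01). The gene thus stood at percentile 97.3 of the 11810 genes measured in MB over OM and at percentile 95.1 of the 11838 in MB over NM.

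DUSP5, a nuclear phosphatase specific for ERK, read 1296 a.u. on OM, 1547 a.u. on MB and 1149 a.u. on NM. The MB reading exceeded that of OM 1.22-fold and that of NM 1.21-fold, and OM and NM lay within the technical spread of each other. A pseudogene of DUSP5, DUSP5P, has probes of its own on the array, and because related transcripts can share signal the reading of DUSP5 is less certain. The longest run that the DUSP5 probe shared with the DUSP5P probes was 6 bases. That compares probes only, and a match of the DUSP5 probe to the rest of the DUSP5P transcript was not tested. Those probes, named after their values were seen, read 897 and 1055 a.u. on OM, 923 and 1083 a.u. on MB, and 427 and 537 a.u. on NM, so that NM was the low array there and MB stood 1.05-fold above OM at both.

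DUSP6, the cytoplasmic phosphatase specific for ERK, read 12899 a.u. on OM, 17098 a.u. on MB and 12312 a.u. on NM. It was 1.36-fold higher on MB than on OM and 1.25-fold higher than on NM. OM and NM again lay within the technical spread, at a log2 ratio of 0.12 in NM over OM. Its place among all genes was modest, at percentile 72.2 in MB over OM and percentile 65.0 in MB over NM.

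Of the Sprouty genes, SPRY4 had the widest differences. It read 7108 a.u. on OM, 21479 a.u. on MB and 3599 a.u. on NM. It was 3.09-fold higher on MB than on OM and 5.36-fold higher than on NM, and NM was 1.73-fold below OM. The order from MB through OM to NM held beyond the technical spread at each step. SPRY4 reached percentile 98.7 in MB over NM and percentile 4.88 in NM over OM. It was the single member past 5-fold, and only in MB over NM. The study asked for 5-fold between MB and OM, then against both OM and NM, which SPRY4 did not reach.

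The sprouty-4C probe, taken up after its values were seen, read 241 a.u. on OM, 194 a.u. on MB and 42.1 a.u. on NM. It was low on NM as SPRY4 was, 5.02-fold below OM and 4.13-fold below MB. Between the other two arrays it went the other way, with MB 1.22-fold below OM. The higher SPRY4 reading of MB over OM was therefore not seen at this neighbouring probe, and whether both read the same transcript was not tested.

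SPRY1 was dim on every array, at 54.7 a.u. on OM, 175 a.u. on MB and 119 a.u. on NM. On MB it was 3.28-fold that of OM and 1.33-fold that of NM, and NM was 2.47-fold above OM. OM was the low array, and MB and NM differed from each other by more than the technical spread of brighter probes. These ratios leaned on the background taken off a signal below 100 a.u. on OM, and with normexp correction the log2 ratio of MB over OM went from 1.71 to 0.91 and that of NM over OM from 1.31 to 0.63.

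SPRY2 read 6954 a.u. on OM, 9959 a.u. on MB and 7428 a.u. on NM. It was 1.47-fold higher on MB than on OM and 1.20-fold higher than on NM. NM was 1.22-fold above OM, so the 3 arrays were ordered from MB through NM to OM with each step past the technical spread. Under other scalings a step fell within it. NM over OM had a log2 ratio of 0.095 without scaling, and MB over NM had 0.12 with spike-in scaling. SPRY1 and SPRY2 both read higher on NM than on OM, whereas SPRY4 read lower.

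SPRED1, which binds the RAS inhibitor neurofibromin and brings it to the membrane, read 1903 a.u. on OM, 2406 a.u. on MB and 1380.4 a.u. on NM. It was 1.29-fold higher on MB than on OM and 1.56-fold higher than on NM, and NM was 1.21-fold below OM. Its dimmer probe read 346, 546 and 208 a.u. on OM, MB and NM, which gave 1.62-fold, 2.35-fold and, for NM below OM, 1.46-fold. Both probes put the arrays in the order MB, OM, NM, but their sizes differed by more than the technical spread in all 3 comparisons.

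SPRED2, which encodes a relative of SPRED1 with a like role, read 1691 a.u. on OM, 3004 a.u. on MB and 1406 a.u. on NM at its brighter probe. The MB signal was 1.82-fold that of OM and 1.92-fold that of NM, and OM and NM lay within the technical spread. The dimmer probe, shown above, read 145 a.u. on OM, 75.1 a.u. on MB and 279 a.u. on NM. There MB was the low array, 1.88-fold below OM and 4.14-fold below NM, and NM was 2.20-fold above OM. The direction of SPRED2 on MB therefore held for 1 of its 2 probes, and why the probes differ was not tested.

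ETV4 read 2897 a.u. on OM, 3323 a.u. on MB and 1671 a.u. on NM. It was 1.79-fold higher on MB than on NM and 1.52-fold lower on NM than on OM. The difference of MB over OM was 1.17-fold (log2 ratio 0.23), and it changed sign, to -0.044, when the arrays were scaled on spike-in controls. The second probe read 2186, 2714 and 1312 a.u. on OM, MB and NM and gave 1.27-fold in MB over OM and 1.86-fold in MB over NM. For ETV4 it was NM that stood apart, low at both probes.

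ETV5 had the narrowest differences, at 3354 a.u. on OM, 3824 a.u. on MB and 3183 a.u. on NM. MB was 1.17-fold above OM (log2 ratio 0.22, and -0.053 on spike-in scaling) and 1.08-fold above NM. The step from MB to NM was within the technical spread and changed sign with 75th percentile and with spike-in scaling, and so was the step from NM to OM. Its second probe read 1481, 2070 and 1329 a.u. on OM, MB and NM, which gave 1.43-fold in MB over OM and 1.40-fold in MB over NM. The 2 probes thus disagreed on the size, and both had MB highest.

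**Figure D2:**
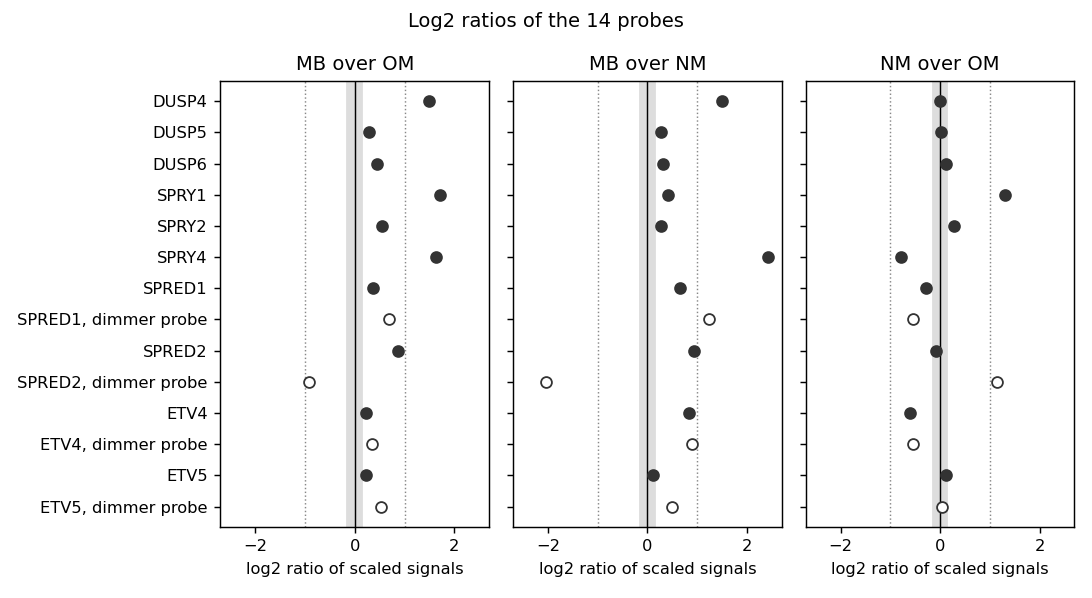
Log2 ratios of housekeeping-scaled signals for the 14 probes in MB over OM, MB over NM and NM over OM, with filled points for the brightest probe of a gene and open points for the dimmer ones. The grey band is double the technical SD (0.15 in MB over OM) and the dotted lines mark 2-fold; the dimmer SPRED2 probe lies on the other side of 0 from its partner in MB over OM and MB over NM.

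Set against all genes measured, 3 of the 10 members (DUSP4, SPRY1 and SPRY4) were 2-fold or more higher on MB than on OM, where 6.62% of all genes were. None was 2-fold lower, against 3.72%. The median log2 ratio of the members was 0.50 with a range of 0.22 to 1.71, and that of all genes was 0.15. All 10 lay above the median of all genes and 5 above its upper quartile of 0.48. The share of all genes higher on MB by any amount was 62.9%, so that 10 of 10 in that direction was read against a table that itself leaned toward MB. With housekeeping scaling all 10 also passed the technical spread, where 50.3% of all genes did. With spike-in scaling DUSP5 (log2 ratio 0.013), SPRED1 (0.096), ETV4 (-0.044) and ETV5 (-0.053) did not. With 75th percentile scaling DUSP5 (0.099), ETV4 (0.042) and ETV5 (0.033) did not. The same genes fell short with quantile normalization (0.096, 0.080 and 0.068).

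In MB over NM, 2 of the 10 (DUSP4 and SPRY4) were 2-fold or more higher, where 11.1% of all genes were, and none was lower by that much, against 9.19%. SPRY4 was 5-fold higher, as were 1.6% of all genes. By any amount 53.2% of all genes were higher, beside 10 of 10 members, and past the technical spread 44.7%, beside 9 members. ETV5 was the one that did not pass it, and with spike-in scaling DUSP5 (log2 ratio 0.13) and SPRY2 (0.12) did not pass it either. The median of the members was 0.53 with a range of 0.11 to 2.42, beside 0.05 for all genes, and all 10 again lay above that value. The 2-fold counts in both comparisons amounted to few genes, and they share the MB array, so neither stands as a repeat of the other. Of the 11697 genes measured in both, 47.7% were higher on MB than on both other arrays by any amount, 37.5% past the technical spread and 5.11% by 2-fold, as were 10, 9 and 2 of the members.

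In NM over OM 5 of the 10 members were higher, where 59.9% of all genes were by any amount. SPRY1 was 2-fold higher, as were 4.62% of all genes, and none was 2-fold lower, against 3.04%. Past the technical spread, 2 members were higher (SPRY1 and SPRY2), where 46.2% of all genes were, and 3 were lower (SPRY4, SPRED1 and ETV4), where 28% were. These counts depended on the scaling. Without it DUSP4 (log2 ratio -0.20), DUSP5 (-0.17) and SPRED2 (-0.27) were also lower past the spread, and SPRY2 (0.095) fell within it. The median of the members was 0.00 and that of all genes 0.11.

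The choice of scaling moved all genes together. Spike-in scaling put the median of all genes in MB over OM at -0.12 in place of 0.15, and 8 of the 10 members were then higher on MB than on OM. Relative to the median of all genes, the members lay higher by 0.34 in MB over OM and by 0.47 in MB over NM. In each of these comparisons 6 of the 14 alternatives move all genes alike or repeat the deposited values, so the place of the members relative to that median is fixed under them. Of 7 others that hold all 10 members, 6 had all 10 above the median, and the mean over all probes of a gene had 9, without SPRED2. Some of those 6 could hardly differ. The 2 changes of the background filter left the member ratios as they were, and keeping outlier spots moved them all by the same small amount. Quantile normalization, normexp and no background subtraction did change members one by one, and all 10 lay above the median under each. The second probe alone covers 4 members, of which 3 lay above it, again without SPRED2.

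**Figure D3:**
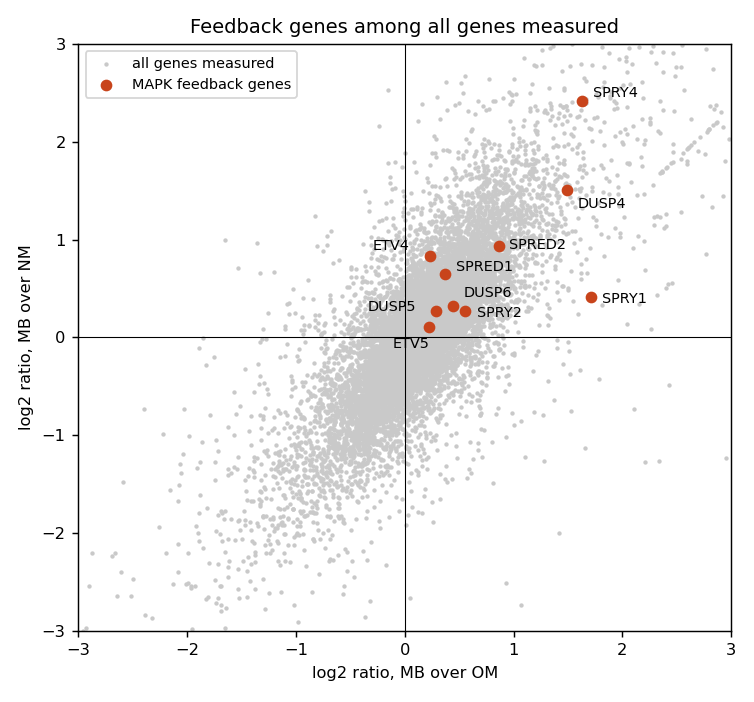
Log2 ratio of MB over OM (horizontal) against MB over NM (vertical), in housekeeping-scaled signal, for the genes measured in both comparisons (grey) and for the 10 members (named points). Axes end at 3 and -3, which leaves 156 of 11697 genes outside; SPRY4, DUSP4 and SPRY1 lie farthest to the right among the members, and the axes share the MB array.

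Other genes of the pathway were read through lists of known function. Of the remaining DUSP, Sprouty and PEA3 relatives, 9 were measured on MB and OM, with 1 past 2-fold higher, 1 lower and a median log2 ratio of 0.31. In MB over NM 2 were higher, 1 was lower and the median was 0.05, near that of all genes. DUSP7, another cytoplasmic ERK phosphatase, read 43.0 a.u. on OM, 107 a.u. on MB and 36.9 a.u. on NM, which was 2.53-fold and 2.59-fold higher on MB. DUSP10, which acts on JNK and p38 rather than ERK, was the lower one, at 1826, 822 and 1875 a.u. on OM, MB and NM. MB was 2.17-fold below OM and 2.54-fold below NM for that gene.

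The RAS, RAF, MEK and ERK cascade itself differed less. Of its 18 genes measured, 1 was 2-fold higher on MB than on OM and none lower, and the median was 0.14, near that of all genes. The one past the limit against both populations was SOS1, a nucleotide exchange factor that activates RAS, which was dim on OM and NM at 40.5 and 46.0 a.u. and read 119 a.u. on MB. In MB over NM 1 was higher, none lower and the median of the cascade was 0.16.

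Among 20 other genes known to respond to ERK, 2 were 2-fold higher on MB than on OM and 3 lower, with a median of 0.35. In MB over NM, 5 of 19 were higher and 2 lower, with a median of 0.20. EGR1, an immediate early transcription factor, read 6051 a.u. on OM, 14865 a.u. on MB and 2281 a.u. on NM, 2.51-fold and 5.85-fold higher on MB. IL8, a chemokine, was lower on MB, at 1657, 109 and 8082 a.u. on OM, MB and NM. FOSL1, a subunit of the AP-1 factor, was lower too, at 3482, 1662 and 4462 a.u. Genes counted as responsive to ERK therefore lay on both sides on the MB array.

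Upstream, 16 receptors and ligands were measured, of which 2 were 2-fold higher and 2 lower on MB than on OM, with a median of 0.24. Against NM 5 were higher and 3 lower, with a median of 0.13. FGFR1, a fibroblast growth factor receptor, read 2704 a.u. on OM, 14656 a.u. on MB and 2644 a.u. on NM, 5.55-fold and 4.98-fold higher on MB. ERBB3 read 737, 4055 and 253 a.u., 5.63-fold and 14.4-fold higher on MB. Its ligand NRG1 was 4.03-fold lower on MB than on OM, and FGFR3 2.29-fold lower.

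Of 11 other ETS factors, 1 was 2-fold higher and 1 lower on MB than on OM, with a median of 0.31. Against NM 3 of 10 were higher and 1 lower, with a median of 0.43. ERF, an ETS repressor that ERK phosphorylates, read 1285 a.u. on OM, 3517 a.u. on MB and 612 a.u. on NM, 2.80-fold and 5.15-fold higher on MB. FLI1 was 2.16-fold lower on MB than on OM. None of 20 proliferation genes passed 2-fold in either direction in MB over OM, where their median was 0.14. One of them was 2-fold higher in MB over NM, with a median of -0.03.

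**Figure D4:**
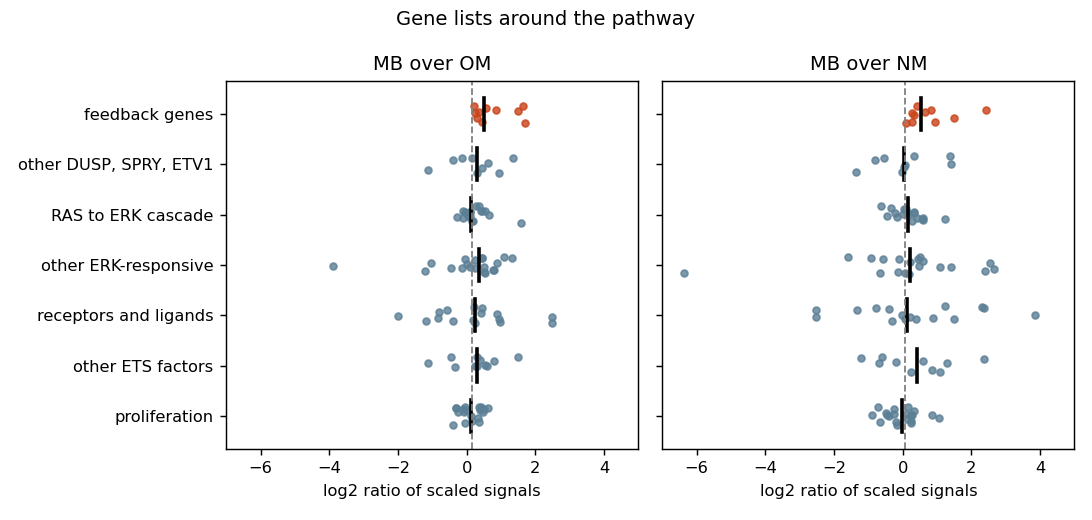
Log2 ratios in MB over OM and MB over NM for the genes of each list, 1 point a gene, with a black bar at the median of the list and a dashed line at the median of all genes (0.15 and 0.05). The members lie to the right of the dashed line in both comparisons, whereas the other lists spread over both sides of it.

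The genes whose profile over the 3 arrays lay nearest to that of DUSP6, by Euclidean distance between centred log2 signals, were DSCR3, PPAPDC3, ZNF335, ETV1 and LYSMD2, at distances of 0.0064 to 0.012. ETV1, the third PEA3 factor, read 628 a.u. on OM, 841 a.u. on MB and 601 a.u. on NM, which was 1.37-fold and 1.26-fold higher on MB. The likeness was a weak guide, since 425 of 11754 genes lay within 0.1 of DUSP6 over only 3 arrays. DUSP5 was the nearest member at 0.11 and SPRY4 the farthest at 1.49.

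Promoters were looked at because the members are transcribed downstream of ERK through ETS and AP-1 factors. RefSeq windows of 250 bases before to 50 after the start (GRCh38.p14) were given for 6 members, 10 windows in all: DUSP6, SPRY1, SPRY2, SPRY4, SPRED1 and SPRED2. DUSP4, DUSP5, ETV4 and ETV5 were not matched. On either strand, the AP-1 motif TGANTCA was in 1 of these 10 and in 7.71% of 35116 promoters. The ETS motif CCGGAA was in 2 and in 17.2%, and its longer form CCGGAAGT, which contains it, in none and in 4.14%. Neither the CRE TGACGTCA (1.85% of all promoters) nor the CArG box (1.29%) was found in the 10. Matches are printed here with the motif in capitals, at chr2:65366766-65366795 and chr2:65366729-65366755 on the minus strand for SPRED2, chr4:123398308-123398337 on the plus strand for SPRY1 and chr13:80341250-80341279 on the minus strand for SPRY2. They describe letters and not binding.
SPRED2, AP-1: taaccctcggaTGACTCAtccggtacaatg
SPRED2, second AP-1: gtcaaggagacTGAATCAtatatgggg
SPRY1, ETS: gccctccgcagCCGGAAgggggccgcgggg
SPRY2, ETS: ccctgcctcctCCGGAAaggcgagggcgca

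The line was checked against its lineage markers. Of 10 melanocyte and neural crest markers, 7, 7 and 6 were well above background on OM, MB and NM. SOX10 read 6254, 9382 and 4887 a.u. and S100B 25155, 43760.3 and 13307 a.u. on those arrays, whereas the pigment enzymes TYR and TYRP1 were not well above background on any. MITF, a regulator of the lineage, read 423, 718 and 551 a.u., also highest on MB. MLANA was highest on MB too, at 31.3, 39.5 and 26.5 a.u., but was not well above background on NM. The other markers well above background on every array were not highest on MB: SILV read 286, 209 and 271 a.u., RAB27A 2692, 2179 and 2156 a.u., and DCT 66.7, 62.8 and 64.1 a.u. The summed signal of the list was 34940.0, 56378 and 21285 a.u., highest on MB, and most of it was S100B. Of the fibroblast markers 1, 2 and 1 of 5 on the array were well above background, of the endothelial markers 2, 3 and 3 of 5, and of the leukocyte markers 4, 4 and 4 of 5. The summed endothelial signal was 2242, 3798 and 2040.1 a.u. on OM, MB and NM, most of it ENG. The defining marker CDH5 did not rise clear of background on any of the arrays. VWF read 185, 390.0 and 95.6 a.u. and was 2.15-fold higher on MB than on OM and 3.66-fold higher than on NM. PECAM1 was well above background on MB alone, at 87.7 a.u., and TEK on NM alone, at 203 a.u. The summed fibroblast signal ran from 830 to 999 a.u. and the leukocyte signal from 343 to 496 a.u. The part of these markers in the differences of the members was not tested.

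**Figure D5:**
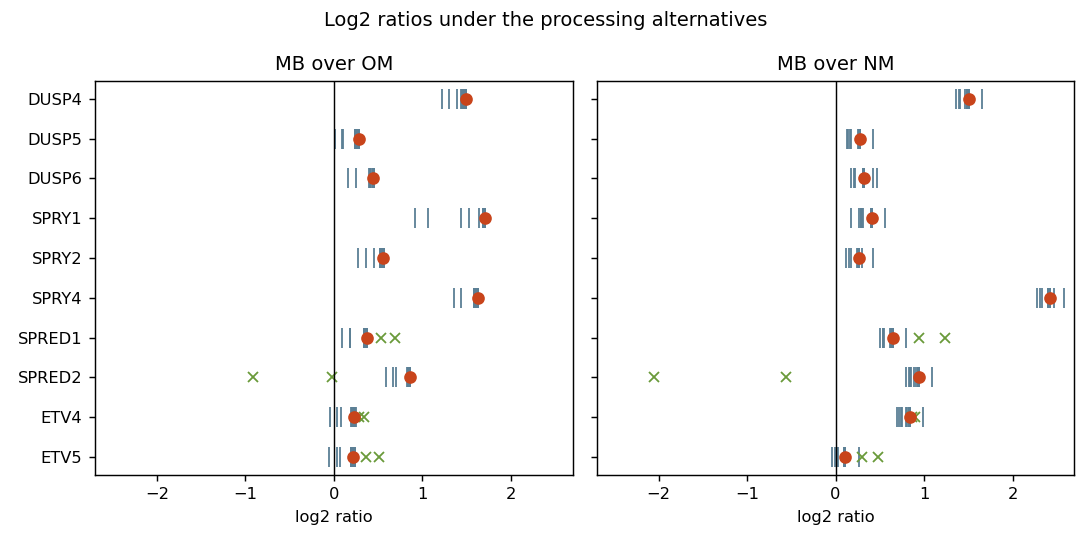
Range of the log2 ratio of each member over the processing alternatives, in MB over OM and MB over NM. The value as reported is in red and values from other probes of the gene are green crosses. SPRY4 and DUSP4 stay well above 0 in both MB comparisons; SPRY1 moves with the background correction and SPRED2 with the probe.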

How the data were processed

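Total RNA of 1 OM, 1 MB and 1 NM sample of 1205Lu cells was labelled with Cy3 and hybridised to 1 array each. The authors scanned the arrays and deposited spot intensities from Agilent Feature Extraction 9.5.3.1 (background-subtracted processed signal), with other columns that flag outlier, saturated and well-above-background spots and the hg17 position of each probe. The authors also deposited a value table, in which 130128 of 130128 values lay within 0.1% of the scanner intensities, so its values are intensity and neither log-transformed nor centred.

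Of 43376 spots an array, 77 to 81 were left out as outliers and 2 to 5 were saturated. Spots of a probe were averaged. Following the methods of the study, the signals of an array were scaled to the average of its 3 housekeeping genes (GAPDH, ACTB and HSP90, for which the methods name no single gene and HSP90AA1 was taken here), which relative to OM was 0.978 for MB and 0.877 for NM. A gene took its probe with the highest mean signal, among probes with a curated RefSeq transcript. It was measured in a comparison if well above background on at least 1 array and above 100 a.u. on the brighter one; a dim array entered at no less than the lowest signal well above background (20.9, 19.4 and 29.1 a.u. on OM, MB and NM). Differences are log2 ratios of the deposited intensities after this scaling. Precision is limited by the 3 arrays: with 1 a population no test was made, and the technical SD comes from repeated spots. All 10 members are named with every probe; from the other lists, genes 2-fold different from both OM and NM in the same direction (at most 3 a direction); and the 5 genes nearest to DUSP6. The members and lists were chosen with earlier results of these data known. There were 14 processing alternatives. The scripts, tested on simulated data, used Python 3.11.15, numpy 2.4.6, pandas 2.3.3, matplotlib 3.10.9, and R 4.3.3 with limma 3.58.1 for normexp.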

Additional observations from a re-analysis of the deposited data

How the results depend on the processing

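Of 402 recomputed member ratios, 22 had the other sign, 6 of them for differences past the technical spread and 16 for smaller ones. Those 6 apart, 269 moved by less than 1 technical SD and 127 by more. Many of the 269 could not move, so their number does not measure stability. The deposited value table and both changes of the background filter repeat the member ratios. The mean of all probes repeats them for genes with 1 probe, and keeping outlier spots shifts all members alike by a small amount. In MB over OM, the median of the members (0.50) was 0.31 with 75th percentile scaling and 0.22 with spike-in scaling. Spike-in scaling also turned ETV4 to -0.044 and ETV5 to -0.053. In MB over NM, the median (0.53) was 0.41 with 75th percentile scaling, 0.68 without scaling, 0.38 with spike-in scaling, 0.43 with the geometric mean of the housekeeping genes and 0.36 with the mean of all probes. In NM over OM, the median (0.00) was -0.073, -0.19 and -0.13 with 75th percentile, no and spike-in scaling. With the mean of all probes SPRED2 went to -0.025 in MB over OM and -0.55 in MB over NM, and with its second probe to -0.91 and -2.05. Over the second probes of the 4 genes that have one, the medians were 0.69 in MB over NM and -0.26 in NM over OM, no gene was 2-fold higher in MB over OM, and in MB over NM 1 was higher and 1 lower. The count of 1 member 2-fold higher in NM over OM (SPRY1) was 0 with normexp and 0 without background subtraction. Both changed how much was taken off a dim signal, and normexp also added an offset of 50 that narrows ratios of dim signals. The 2-fold count in MB over OM was 2 with normexp, without SPRY1.

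No paired analysis was possible because each population had 1 array. For the same reason leaving out a replicate was not possible, and the variation between cultures is unknown. The technical SD comes from probes above 100 a.u. and understates the error of SPRY1, the dimmer SPRED2 probe, DUSP7 and SOS1, whose signals on some arrays were near or below that level. Where 2 probes of a gene disagree, these intensities do not tell which one follows the transcript.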

Other observations

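Some genes outside the members had the order seen for SPRY4, with NM the lowest array. They were chosen after their values were seen and are given as values with no reading of what they share. EGR3, an immediate early transcription factor, read 1728 a.u. on OM, 2382 a.u. on MB and 406 a.u. on NM, so that NM was 3.74-fold below OM after scaling by the housekeeping genes. TGFA, a ligand of the epidermal growth factor receptor, read 2879, 3873 and 669 a.u. on OM, MB and NM. The receptor itself, EGFR, had the opposite order, with 596 a.u. on OM, 396 a.u. on MB and 2062 a.u. on NM, which was 3.95-fold higher on NM than on OM. DUSP1, an immediate early phosphatase of MAP kinases, was also highest on NM, at 1654, 1785 and 2777 a.u. on OM, MB and NM.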
